A study of Bos taurus with 4 samples.

Results

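The 5 genes described here, KRT8, KRT18, KRT19, ACTB and ACTG1, encode the simple epithelial keratins of the trophectoderm and the cytoplasmic actins. They were taken by symbol from the platform annotation, which gave each of them 1 probe, so 5 probes of 43794 embryo probes and 5 genes of 15229 named genes were followed. All 5 probes lay above background in all 8 channels and all 5 entered the test over 36325 probes. The samples were bovine blastocysts made by in vitro maturation, fertilisation and culture, with oocytes from slaughter ovaries and sperm collected from bulls at 10 or at 16 months of age. The study used 4 bulls, sampled at either age, and asked whether embryos differ with the age of the sire around puberty. Both groups share the in vitro culture and the oocyte source, and the sources used here give neither the breed nor the number of embryos per sample. RNA was amplified before labelling. Each of 4 two-channel arrays carried 1 sample of either age in opposite dyes, with the 10-month sample on Cy5 on arrays 1 and 2 and on Cy3 on arrays 3 and 4.

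A blastocyst is built of an outer epithelium, the trophectoderm, and an inner cell mass. The trophectoderm is the first epithelium of the embryo, and its cells carry keratin filaments anchored at desmosomes and a belt of filamentous actin under their junctions. Keratin filaments are obligate pairs of a type II keratin, here KRT8, and a type I keratin, here KRT18 or KRT19. ACTB and ACTG1 encode actins that are nearly identical as proteins, and ACTB is widely used as a reference gene for expression measurements. In the RefSeq gene table of assembly ARS-UCD2.0, KRT8 and KRT18 lay on chromosome 5 with 1 other gene, LOC104976949, between them. KRT19 and ACTG1 lay on chromosome 19 and ACTB on chromosome 25. The sources used here name no genome build for the probes, so positions are left out.

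Between 33452 and 35972 embryo probes were above background per array, and the SD over probes of the log2 Cy5 over Cy3 ratio was 0.47 on array 3 against 0.30 to 0.32 on the others. The blastocyst markers CDX2, GATA3, TFAP2C, IFNT, POU5F1, NANOG and SOX2, 7 of 7, were above background in all 8 channels. Of the markers of other cells, 3 of 10 for cumulus and granulosa (STAR, CYP19A1 and INHBA), 4 of 7 for fibroblasts (COL1A1, COL1A2, LUM and THY1), 1 of 4 for leukocytes (PTPRC) and 0 of 4 for sperm were above background in all 8 channels. AMH, LHCGR and LYZ were above background in none. In RNA from whole embryos, fewer cells of a type and less RNA per cell cannot be told apart.

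None of the keratins or actins passed the test for the age of the sire. The estimates, as log2 of 10 over 16 months with the dye fitted, lay between -0.24 for KRT19 and 0.04 for ACTG1, and 0 of 5 passed the limma test adjusted over all probes, where 0% of all 36325 tested probes passed. At an unadjusted p under 0.05, 0 of 5 were called, against 3.96% of all probes. A ratio of the same sign on all 4 arrays was seen for 0 of 5 of these genes and for 9.37% of all probes. Their spread over arrays was wide. Single arrays gave ratios from -1.64 to 1.68 on the log2 scale, and 4 of the 5 genes had an SD over arrays above that of 99.1% of tested probes. The spread took a different form in each gene, as described below.

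KRT8, the type II keratin of the pair, gave one of the brightest spots in the Cy5 channel of every array. Its unnormalised spot medians in embryos of 10-month sires were 55312 and 63616 on Cy5 on arrays 1 and 2, and 24223 and 22457 on Cy3 on arrays 3 and 4. In embryos of 16-month sires they were 17574 and 40840 on Cy3 on arrays 1 and 2, and 65535 and 61872 on Cy5 on arrays 3 and 4. On all 4 arrays the Cy5 channel was thus the brighter, whichever age it carried. The value of 65535 is the ceiling of the scanner, reached by 2 embryo probes in Cy5 on array 3, so the ratio of that spot, and the fitted KRT8 values that include it, are bounds. On the other arrays the Cy5 value lay at 84.4% to 97.1% of the ceiling.

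**Figure D1:**
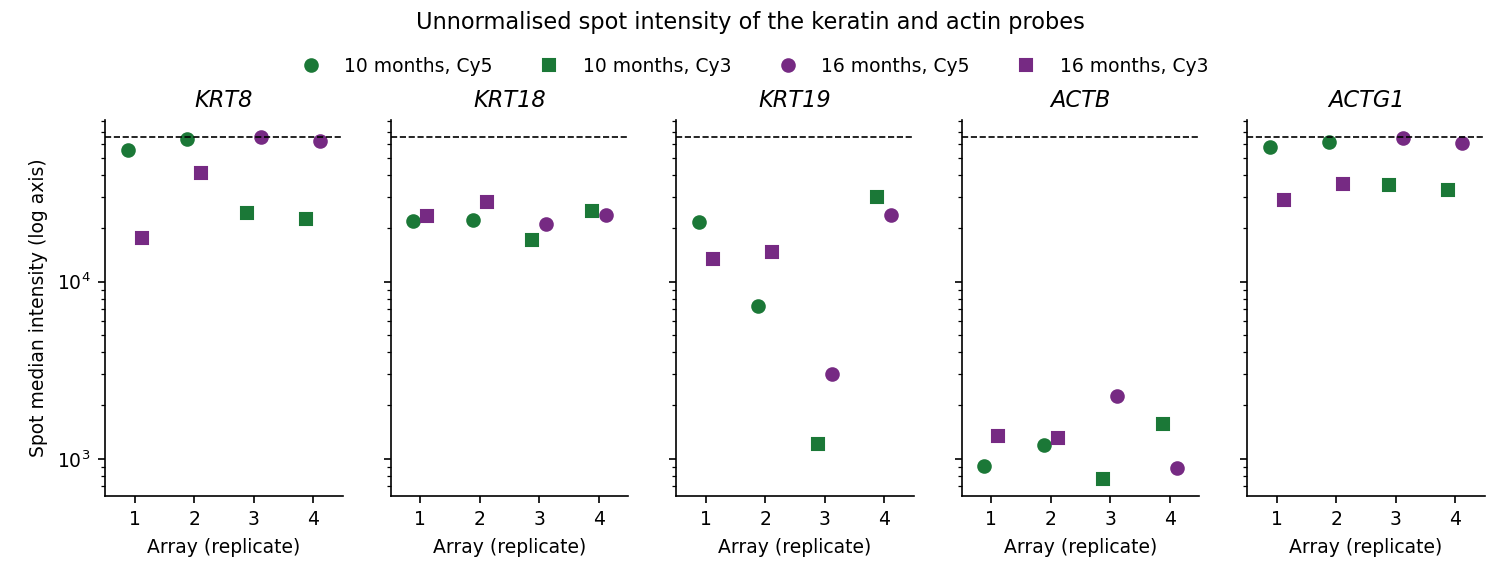
Unnormalised spot median intensity (log axis) of each probe on the 4 arrays, with green for embryos of 10-month and purple for embryos of 16-month sires, circles for Cy5, squares for Cy3, and a dashed line at the scanner ceiling of 65535. KRT8 and ACTG1 were brighter in Cy5 on all 4 arrays, KRT18 stayed between 17254 and 27936, and KRT19 dropped to 3029 and 1210 on array 3.

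After loess normalisation the KRT8 log2 ratios of 10 over 16 months were 1.68, 0.59, -1.27 and -1.45 on arrays 1 to 4. They were positive where the 10-month sample carried Cy5 and negative where it carried Cy3, and their means over the orientations were 1.14 and -1.36. With the dye fitted, the estimate was -0.11 ± 0.18 (SE, n = 4 arrays, limma adjusted p = 0.973), a ratio of 0.925 with a 95% interval from 0.692 to 1.24. The authors' deposited table gave KRT8 ratios of 1.51, 0.51, -1.05 and -1.28, with the same signs array by array. Without array 2 the estimate turned to 0.16, without the saturated spot of array 3 it was -0.16, and no age difference in KRT8 was detectable with these arrays.

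KRT18, the type I partner of KRT8, had the lowest SD of the log2 ratio over arrays among the 5. Its spot medians in embryos of 10-month sires were 21822, 22198, 17254 and 25081 on arrays 1 to 4. In embryos of 16-month sires they were 23395, 27936, 21230 and 23738. The ages overlapped and neither channel was consistently the brighter. The log2 ratios were 0.0047, -0.24, -0.17 and 0.00049, so their SD of 0.12 was lower than that of all but 8.77% of tested probes. That SD contains the dye. With dye and age fitted, the residual SD was 0.15 for KRT18 and lower, at 0.11, for ACTG1. The SD of the level over arrays was 0.12 for KRT18 and 0.076 for ACTG1. The KRT18 estimate was -0.10 ± 0.12 (SE, n = 4, limma adjusted p = 0.964), a ratio of 0.932 with a 95% interval from 0.769 to 1.13. Over all tested probes the 5th and the 95th percentile of the estimate were -0.24 and 0.29.

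The members of the keratin pair therefore behaved differently on the same arrays. The KRT8 ratio minus the KRT18 ratio was 1.67, 0.84, -1.10 and -1.46 on the log2 scale on arrays 1 to 4, with a mean of -0.01. Its sign followed the dye and not the age of the sire. The difference between the genes was not tested.

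**Figure D2:**
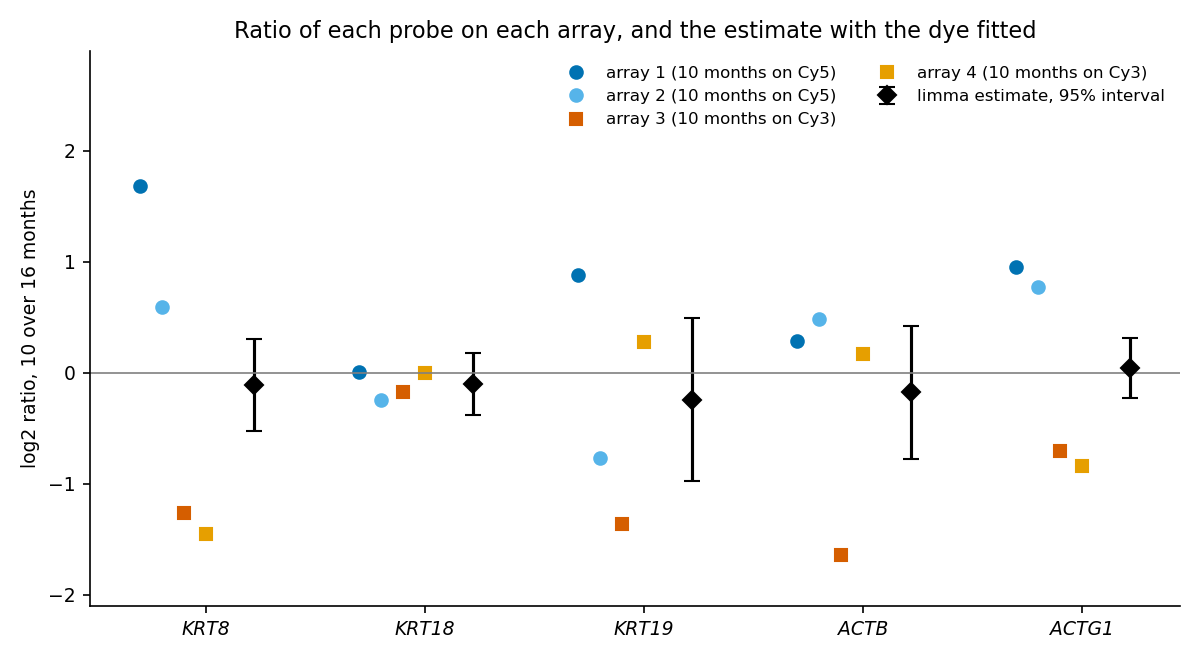
Log2 ratio of 10 over 16 months for each probe on each array, with circles where the 10-month sample carried Cy5 and squares where it carried Cy3; black diamonds are the limma estimates with the dye fitted and bars their 95% intervals (n = 4 arrays). All 5 intervals include 0, and the circles and squares of KRT8 and of ACTG1 lie on opposite sides of 0.

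KRT19, a type I keratin that lacks most of the tail domain of other keratins, had the widest interval. Its spot medians in embryos of 10-month sires were 21803, 7318, 1210 and 29932 on arrays 1 to 4. In embryos of 16-month sires they were 13390, 14709, 3029 and 23692. Array 3 gave the lowest value at both ages, and the ages overlapped. The log2 ratios were 0.88, -0.77, -1.37 and 0.28, which differed in sign within either dye orientation. The estimate was -0.24 ± 0.32 (SE, n = 4, limma adjusted p = 0.969), a ratio of 0.845 with a 95% interval from 0.507 to 1.41. It turned to 0.17 without array 2 and to 0.17 without array 3. After dye and age were fitted, the residual SD of KRT19 was 1.16, above that of 99.9% of tested probes, whose median was 0.23.

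The level of KRT19 on array 3 stood apart from its levels elsewhere. Averaged over both ages and scaled between arrays, the log2 level was 14.09, 13.43, 10.82 and 14.67 on arrays 1 to 4. The level on array 3 minus the mean of the others was -3.24, which is 9.45-fold lower, and of 36325 tested probes 0 had a lower value of this difference. Both channels shared the drop: the level of the 10-month sample was 10.14 on array 3 against 13.04 to 14.81 elsewhere, and that of the 16-month sample was 11.50 against 13.64 to 14.53. The spot was still above background there, at 5.14 times the detection threshold in Cy3 and 25.1 times in Cy5. The 35 probe spots printed around it differed by a median of -0.03, with a range from -0.92 to 1.06, so the spots nearby did not share the drop. Leaving out array 1, 2 or 4, spot means, no background correction and no scaling between arrays gave differences from -3.56 to -2.94.

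KRT8, KRT18, ACTB and ACTG1 had no drop of that size on array 3. Their levels there differed from the mean of the other arrays by -0.08 for KRT8, -0.22 for KRT18, 0.11 for ACTB and 0.0052 for ACTG1 on the log2 scale. Among 24 other keratin, intermediate filament and desmosome genes, 21 (87.5%) were lower on array 3, against 49.8% of all tested probes, with a median of -0.17 against 0.0014 over all probes. Mean log2 intensities in this list ran from 6.78 for KRT10 to 13.94 for DES. Many of its probes were dim, among them KRT4 (6.82), PKP1 (6.86) and NES (6.89). The part of dim probes in this share was not tested. KRT7, another simple epithelial keratin, differed by -0.84. Of 14 trophectoderm regulators, 8 (57.1%) were lower, close to the share of all probes, with a median of -0.28. CDX2 differed by 0.06 and TEAD4, the lowest of them, by -0.88. IFNT, the interferon by which the ruminant trophectoderm signals pregnancy, differed by -2.09 and was the 9th lowest of all tested probes. NANOG, a factor of the inner cell mass, differed by -1.45, and POU5F1 by -0.10. Further named genes among the 12 lowest, listed after their values were seen, were NID1 (-2.22), FADS2 (-2.16), SIL1 (-2.07), ANO9 (-2.07) and CYP11A1 (-2.04), and 5 of the 12 had no symbol. Summed over the cumulus and granulosa markers, spot intensity in multiples of the detection threshold was 11.0 at 10 months and 14.8 at 16 months on array 3. The ranges over arrays, which mix the dyes, were 11.0 to 16.7 and 10.6 to 18.6. Summed over the fibroblast markers it was 9.22 and 15.0 there, with ranges of 9.22 to 20.1 and 11.6 to 26.7. At 10 months array 3 was thus the lowest for both lists. It was also the lowest for the blastocyst markers (103, range 103 to 412) and the sperm markers (3.64, range 3.64 to 5.01). For the leukocyte markers it was not (48.0, range 29.1 to 88.5). The 16-month sample of array 3, on Cy5, lay inside the range for every list. Its sum was 338 for the blastocyst markers (range 117 to 455). For sperm and leukocyte markers it was 4.35 (range 3.59 to 5.05) and 46.7 (range 20.9 to 82.3). The 10-month sample of array 3 was on Cy3, where detection thresholds were 236 to 285, against 72.9 to 121 in Cy5. The part of the dye in these sums was not tested. The part of cumulus or fibroblast cells in the KRT19 value was not tested.

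**Figure D3:**
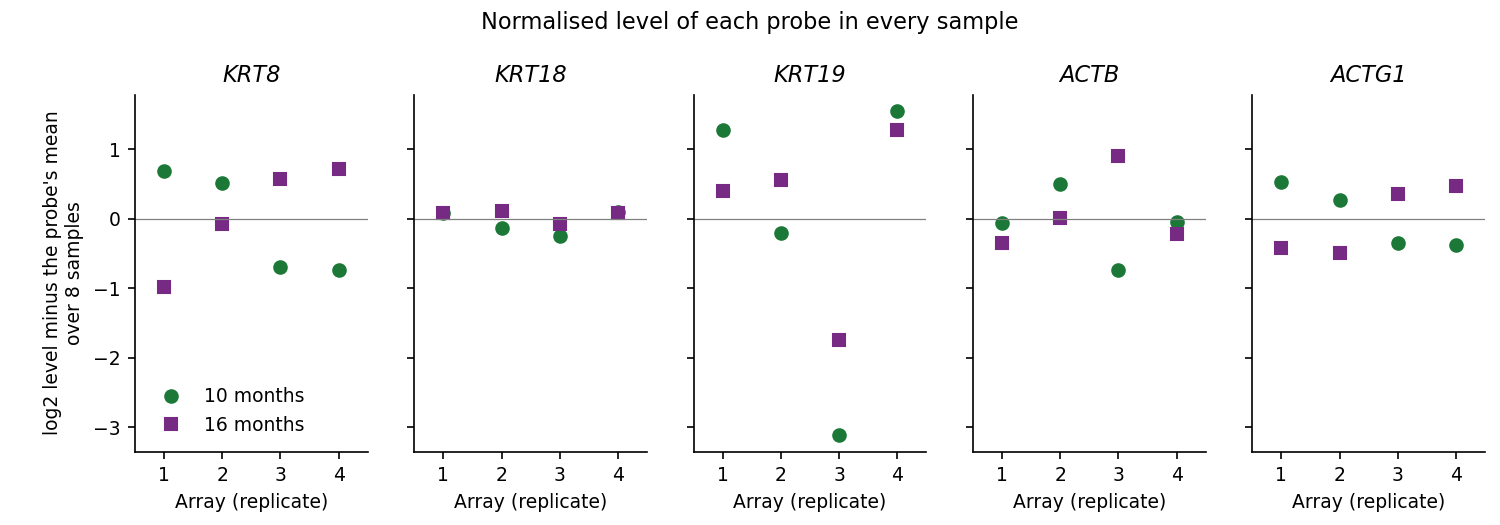
Normalised log2 level of each probe in the 8 samples, minus the mean of that probe over the 8 samples, by array, with green circles for embryos of 10-month and purple squares for embryos of 16-month sires. KRT19 was low on array 3 at both ages, KRT18 stayed near 0, and the ages of KRT8 and ACTG1 changed places between arrays 1 and 2 and arrays 3 and 4.

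ACTB, the beta cytoplasmic actin, gave a far dimmer spot than the ceiling allows. Its spot medians in embryos of 10-month sires were 916, 1204, 772 and 1581 on arrays 1 to 4. In embryos of 16-month sires they were 1348, 1319, 2261 and 894. These are 3.28 to 18.7 times the detection threshold of their channel. The ages overlapped, and the lowest value of the 10-month and the highest of the 16-month samples came from the same array, array 3.

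The ACTB log2 ratios were 0.28, 0.48, -1.64 and 0.17 on arrays 1 to 4. Before the dye was fitted, ACTB was higher in embryos of 10-month sires by 1.12- to 1.40-fold on 3 arrays. On array 3 it was lower, at a ratio of 0.320. Only 62 of 36325 tested probes had a lower ratio on that array. With the fitted dye coefficient removed, the ACTB log2 ratios were -0.28, -0.08, -1.08 and 0.73 on arrays 1 to 4. The authors' deposited table gave ACTB ratios of 0.27, 0.47, -1.61 and 0.16. The estimate was -0.18 ± 0.26 (SE, n = 4, limma adjusted p = 0.971), a ratio of 0.884 with a 95% interval from 0.584 to 1.34. It turned to 0.27 without array 3 and was -0.63 without array 4, where ACTB was among the probes called. That fit leaves array 3 alone in its dye orientation, so its test holds no spread for array 3. Around the ACTB spot, 36 neighbouring spots had a Cy5 over Cy3 ratio on array 3 that differed from the other arrays by a median of 0.0034, against 1.44 for ACTB. Single neighbours ranged from -2.08 to 1.09, so a nearby spot differed by more in size than ACTB did.

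ACTG1, the gamma cytoplasmic actin, was brighter in Cy5 throughout. Its spot medians in embryos of 10-month sires were 57724 and 61552 on Cy5 on arrays 1 and 2, and 34855 and 32773 on Cy3 on arrays 3 and 4. In embryos of 16-month sires they were 28867 and 35531 on Cy3 on arrays 1 and 2, and 64377 and 60742 on Cy5 on arrays 3 and 4. The Cy5 values reached 88.1% to 98.2% of the ceiling, and every Cy5 value exceeded every Cy3 value. The log2 ratios were 0.95, 0.77, -0.71 and -0.84, changing sign with the dye. The authors' deposited table gave ACTG1 ratios of 0.65, 0.63, -0.37 and -0.49. With the dye fitted, the estimate was 0.04 ± 0.12 (SE, n = 4, limma adjusted p = 0.986), a ratio of 1.03 with a 95% interval from 0.853 to 1.24. Its sign was not stable, with -0.0034 without array 1.

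The actins did not track each other. The ACTB ratio minus the ACTG1 ratio was -0.67, -0.29, -0.94 and 1.01 on the log2 scale on arrays 1 to 4. On array 4 alone ACTB had the higher ratio. The mean of this difference was -0.22 with an SD of 0.86 (n = 4). Probe sequences are not in the files used here, so whether a probe also binds the near-identical messenger of a related actin or keratin gene was not tested.

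The dye coefficient was larger in size than the age estimate for 4 of the 5 genes, all but KRT18. Expressed as log2 of Cy5 over Cy3 at equal age, the dye coefficient was 1.25 ± 0.18 for KRT8, 0.82 ± 0.12 for ACTG1, 0.56 ± 0.26 for ACTB, 0.30 ± 0.32 for KRT19 and -0.02 ± 0.12 for KRT18 (SE, n = 4). As ratios these are 1.76-fold for ACTG1 and at least 2.38-fold for KRT8, whose Cy5 value on array 3 was at the scanner ceiling. The KRT8 coefficient without array 3 was 1.30. KRT8 and ACTG1, 2 of 5, had an unadjusted limma p under 0.05 for the dye, against 13.6% of all probes, and the same sign of Cy5 over Cy3 on all 4 arrays, against 23.6% of all probes. After adjustment, 0 of 5 passed (limma adjusted p = 0.110 for both), against 0.011% of all probes. The dye coefficient of KRT8 stayed between 0.43 and 1.91 and that of ACTG1 at 0.26 or above over the alternatives, positive in each.

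High spot intensity went with a positive dye coefficient. Of the 50 tested probes of highest mean intensity, 49 had a positive dye coefficient, with a median of 0.52 against 0.01 over all tested probes. ACTG1 and KRT8 were among these 50, and the KRT8 coefficient was the highest of them, while 6 exceeded that of ACTG1. Over all tested probes, 8 had a dye coefficient above the value measured for KRT8, which is a lower bound. The part of the scanner ceiling, of the dye chemistry and of the loess curve at its bright end was not tested. Because each age was carried by each dye on 2 arrays, a dye effect that is equal on all arrays cancels from the age estimate.

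**Figure D4:**
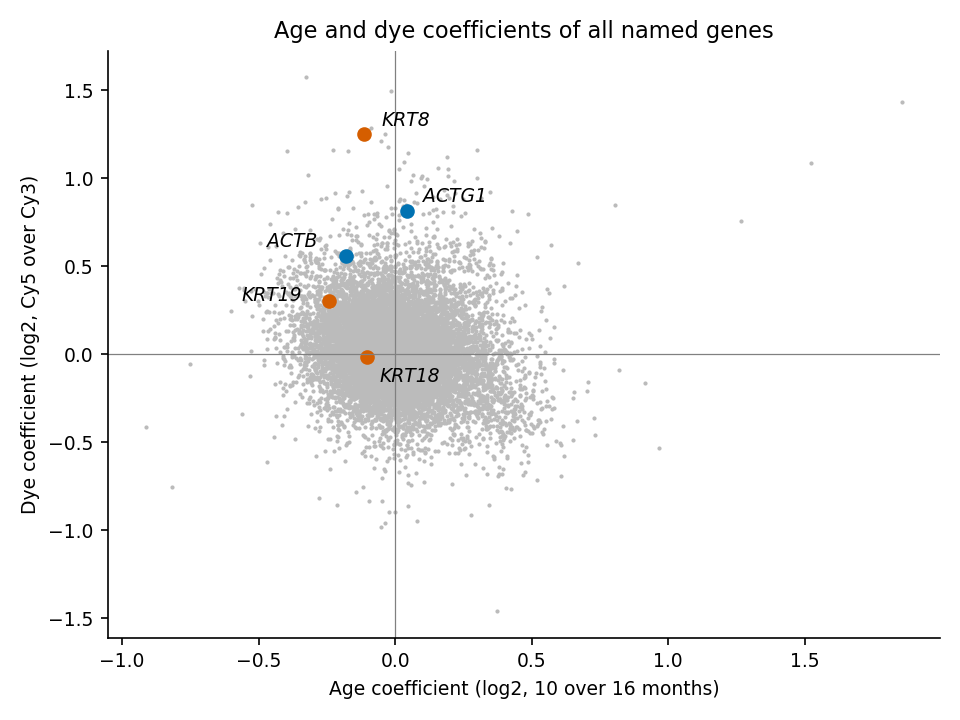
Age coefficient (log2 of 10 over 16 months) against dye coefficient (log2 of Cy5 over Cy3) of the 13506 tested named genes in grey, with the keratins in orange and the actins in blue. The 5 genes lie within -0.24 to 0.04 along the age axis and spread from -0.02 to 1.25 along the dye axis.

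Over all 4 arrays, ACTB was among the least stable probes, with its most extreme ratio on array 3. The SD of its log2 ratio over 4 arrays was 0.98, above that of 99.3% of tested probes, whose median was 0.29. A set of 14 commonly used reference genes had a tested probe. Their SDs ran from 0.097 for TBP, a subunit of the general transcription machinery, to 0.55 for RPL15, a ribosomal protein, with a median of 0.27. None of the 14 exceeded the SD of ACTB, and all 14 lay below that of ACTG1 (0.95) as well. KRT18, at 0.12, had a lower SD than 12 of the 14, all but TBP and RPS18. These SDs contain the dye. With dye and age fitted, the residual SD of KRT18 was 0.15, rank 7 of the 19 reference and member genes. SDHA, RPL15, PPIA, ACTG1, TBP and RPS18 were lower.

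The instability of the actins differed in kind. Once dye and age were fitted, the residual SD of ACTG1 was 0.11, above only 16.2% of tested probes, and 3 of the 14 reference genes were lower. The Cy5 values of ACTG1 lay at 88.1% to 98.2% of the scanner ceiling, which leaves them little room to vary upward. How far this lowered its residual SD was not tested. The residual SD of ACTB stayed at 0.91, above 99.3% of tested probes, against 0.027 for SDHA to 0.42 for CHUK among the reference genes. Without array 3, the array of its most extreme ratio, the SD of ACTB was 0.16 in place of 0.98. Leaving out that array lowers the SD of ACTB by construction, and SDs of these ratios still contain the dye. On the other 3 arrays 11 of the 14 reference genes had a higher SD than ACTB and 3 a lower one, over a range of 0.075 to 0.56. ACTB exceeded only 28.1% of tested probes there, whose median was 0.24. The order on those 3 arrays is therefore no measure of how stable ACTB is. Array 3 was also the array with the widest ratios over all probes.

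**Figure D5:**
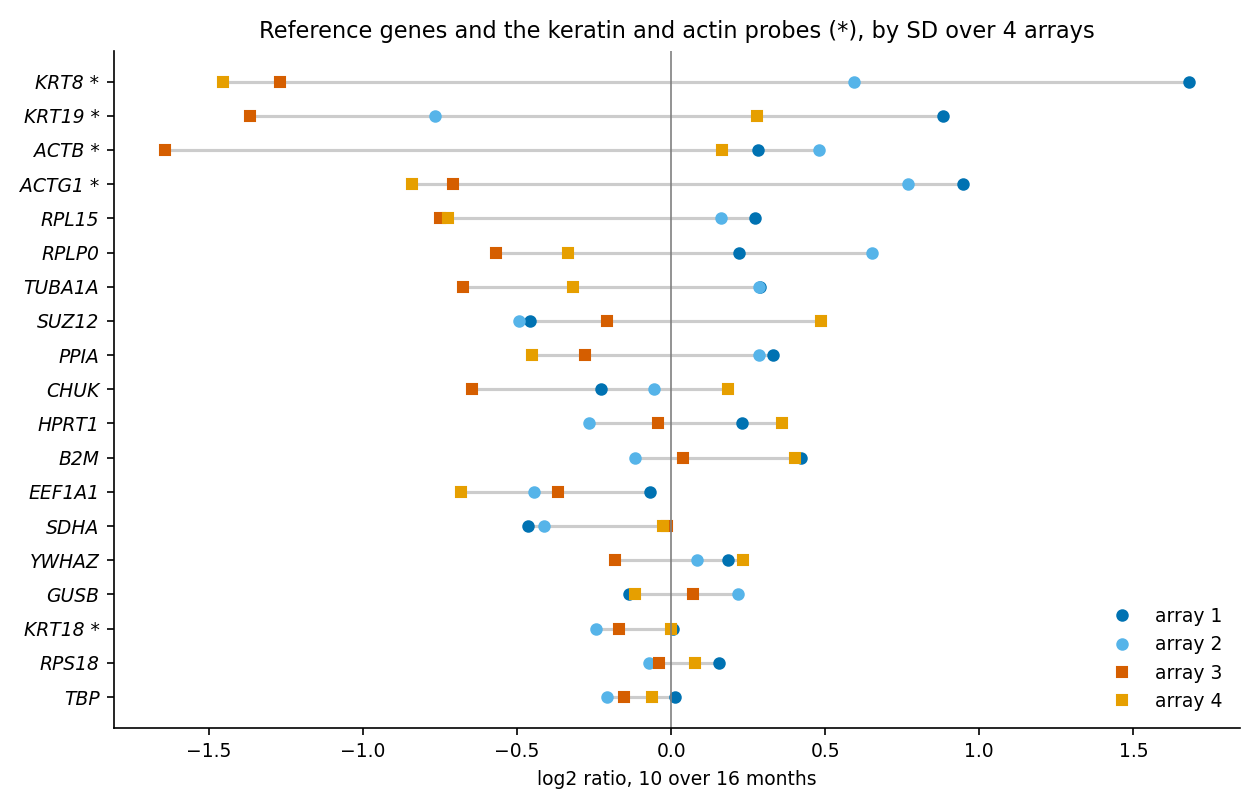
Log2 ratio of 10 over 16 months on each array for the 14 reference genes and the 5 keratin and actin genes (marked with an asterisk), ordered by the SD over 4 arrays; circles mark arrays 1 and 2 and squares arrays 3 and 4, and the grey line spans the range. KRT8, KRT19, ACTB and ACTG1 lie above all 14 reference genes, whose SDs reach 0.55, and KRT18 lies among the genes of lowest SD. These SDs contain the dye.

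Expressing every probe relative to ACTB carried this spread into all of them. The log2 amounts subtracted from arrays 1 to 4 were 0.28, 0.48, -1.64 and 0.17. The median SE over all tested probes rose from 0.13 to 0.48, the median estimate shifted by 0.18 on the log2 scale, and the count at an unadjusted limma p under 0.05 went from 1439 to 7. Relative to ACTB, KRT8 had an estimate of 0.07, KRT18 of 0.08, KRT19 of -0.06 and ACTG1 of 0.22, and no adjusted test was passed. With ACTG1 as the reference, whose dye effect is removed by the fit, the median SE was 0.15 and the count 1383. The Cy5 values of ACTG1 lay at 88.1% to 98.2% of the scanner ceiling, and the part of this in that SE was not tested. With the mean of the 14 reference genes the median SE was 0.14 and the count 1735.

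Genes with which the keratins and actins work did not pass the adjusted test either. Of 24 other keratin, intermediate filament and desmosome genes, 0 passed the adjusted test and 0 had an unadjusted limma p under 0.05, with a median estimate of -0.02 against -0.0027 over 13506 named genes, of which 4.47% had such a p. The largest estimates were those of the lamins LMNB1 (0.29 ± 0.15, SE) and LMNA (0.26 ± 0.23) and of the junction proteins JUP (-0.26 ± 0.12) and PKP4 (-0.24 ± 0.14). Without array 3 they were 0.11 for LMNB1, -0.12 for LMNA, -0.22 for JUP and -0.08 for PKP4. JUP, plakoglobin of desmosomes and adherens junctions, had a negative ratio on all 4 arrays, at -0.47, -0.21, -0.27 and -0.10. Among all tested probes, 9.37% had a ratio of the same sign on all 4 arrays. KRT7, a further simple epithelial keratin, was at 0.09 ± 0.19.

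Of 48 actin filament genes, 0 passed the adjusted test, and 1 was higher and 2 lower at an unadjusted limma p under 0.05. These were 6.25% of the list, close to the 4.47% of all named genes with such a p. The median estimate was -0.10, and it was 0.0014 without array 3. Of the 48 estimates, 32 (66.7%) were below 0, against 50.8% of all named genes. TPM2, a tropomyosin that coats actin filaments, was the higher one at 0.50 ± 0.21, but the mean over its 4 tested probes was 0.16. ACTR1A, the actin-related core protein of dynactin, was at -0.43 ± 0.12, and ARPC1A, a subunit of the Arp2/3 complex that nucleates branched filaments, at -0.34 ± 0.12. ACTC1, the cardiac muscle actin, was at -0.44 ± 0.20. Without array 3, TPM2 was at 0.16 and ACTC1 at -0.16, while ACTR1A was at -0.45 and ARPC1A at -0.34.

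Of 14 trophectoderm regulators, 0 passed the adjusted test, and 1 (7.14%) was lower at an unadjusted limma p under 0.05. Over all named genes 4.47% had such a p. The gene was HAND1, a factor of trophoblast differentiation (-0.28 ± 0.12). Its probe was dim, at a mean log2 intensity of 6.92, and of the 14 EOMES alone was dimmer (6.80). The HAND1 ratios were 0.20, -0.03, -0.72 and -0.56 on arrays 1 to 4, with a dye coefficient of 0.36. The median estimate of the 14 was -0.10, and -0.10 without array 3. ETS2 was at -0.43 ± 0.22 and ASCL2 at 0.31 ± 0.15, but without array 3 they were at -0.06 and 0.11. TEAD4, which acts upstream of CDX2 in the mouse, was at -0.23 ± 0.12, with a mean of -0.14 over its 2 tested probes. Without array 3 its estimate was -0.23. CDX2 itself was at -0.0058 ± 0.12. The TEAD4 ratios were 0.42, 0.66, -0.99 and -1.01 on arrays 1 to 4, which changed sign with the dye as those of KRT8 did.

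The genes whose 4 ratios were most like those of each member were found by the root mean square difference over 4 arrays among 13505 other genes. For KRT8 the nearest was RPS16, a ribosomal protein, at a difference of 0.23, followed by LOC507055, LOC614366, LOC513039 and LOC781580. The RPS16 ratios were 1.57, 0.68, -0.93 and -1.19, also positive with the 10-month sample on Cy5 and negative with it on Cy3. For ACTG1 they were SDF2L1 at 0.065, EID2, LOC618304, ZNF593 and CENPBD1. For ACTB they were ITPR1 at 0.091, CDKL2, ALAS2, COX7B and ST6GALNAC6, and the ITPR1 ratios were 0.31, 0.32, -1.58 and 0.21, low on array 3 as for ACTB. For KRT19 they were GTF2A1 at 0.22, CCDC109A, TROVE2, KLC1 and MYL7. KRT18 was matched by IQCC at 0.019, SNAPIN, RNF169, HAGH and ADAP1, and 1972 genes lay within 0.2 of it, against 10 for ACTB, 17 for ACTG1 and 0 for KRT8 and KRT19. These are descriptions over 4 arrays that share a slide, and no test was made on them.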

How the data were processed

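The deposited scan files held linear, unnormalised intensity, per the file headers, for the foreground and local background of 45220 spots at 635 nm (Cy5) and 532 nm (Cy3). The authors' deposited value table held log2 ratios. Its tool was limma, per the submitters' processing notes, with version and settings not given in the sources used here. It correlated with the ratios computed here at 0.991, 0.978, 0.978 and 0.980, so it ran Cy5 over Cy3 on all 4 arrays, and served as an alternative. Its columns had medians of -0.0073, -0.0044, 0.012 and 9.78e-06. Whether this centring was set on purpose is unknown.

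With limma 3.58.1 in R 4.3.3, spot medians without set-aside spots were corrected with normexp (offset 50) and normalised by loess within arrays, with control spots at weight 0. Levels were also scaled between arrays (Aquantile). A probe was above background where its spot median exceeded that of the negative control by over 2 median absolute deviations. The test took probes that met this in 1 or both channels on 2 or more arrays; 175 were left out for a set-aside spot and 7294 as dim. The lmFit and eBayes model held a dye and an age coefficient, with 2 residual and 5.72 prior degrees of freedom. Benjamini-Hochberg adjustment ran over all 36325 probes, at a threshold of 0.05. SEs come from this fit and borrow from other probes. A gene stood for its brightest tested probe. Alternatives are given in the closing section. The steps were tested on simulated data.

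Per the labels the arrays are numbered biological replicates, tied to no named bull, so p-values measure only the spread between these arrays, whose number limits the precision. All 4 arrays lay on 1 slide. All probes of the 5 genes were named, with the 5 genes of most similar ratios for each and at most 4 genes of largest estimate per list, besides genes named in the text for their role. The members and lists were chosen with earlier results of these data known. Some listed genes are not reported here. Symbols came from the platform annotation, with RefSeq for ARS-UCD2.0 used for names and neighbours.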

Additional observations from a re-analysis of the deposited data

Results flagged for a closer look

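Each of 15 sets of 4 values (3 quantities for each of the 5 genes, namely the log2 ratio and the level at either age) was examined for a value far from the other 3, and 2 had one, both on array 3. For 4 independent values of 1 normal distribution, chance gives about 1 in 20 sets. These sets mix the dyes, and the sets of a gene come from the same spots, so that rate need not hold here. The ACTB log2 ratio of 10 over 16 months was -1.64 on array 3 against 0.17 to 0.48 on the others, and the gap was 0.852 of the whole range. The KRT18 log2 level in embryos of 16-month sires was 14.38 on array 3 against 14.55 to 14.57 on the others, a gap of 0.891 of the range, but the range itself was small. KRT19, whose level on array 3 was the lowest relative to the other arrays of all tested probes, did not meet this criterion, with gaps of 0.623 of the range at 10 months and 0.708 at 16 months.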

How the results depend on the processing

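The estimates for the 5 genes failed the adjusted limma test under the alternatives, except ACTB without replicate 4 (-0.63). That fit leaves replicate 3 alone in its dye orientation, so its test holds no spread for replicate 3. Their direction was less stable. Without replicate 1, ACTG1 was at -0.0034. Without replicate 2, KRT8 was at 0.16 and KRT19 at 0.17. Without replicate 3, KRT19 was at 0.17 and ACTB at 0.27. With the sign of replicate 3 turned, ACTB was at 0.48, KRT19 at 0.39 and ACTG1 at -0.017. Centred on ACTB, KRT8 was at 0.066 and KRT18 at 0.076. Ranges over the fits without 1 replicate were -0.38 to 0.16 for KRT8, -0.16 to -0.040 for KRT18, -0.66 to 0.17 for KRT19, -0.63 to 0.27 for ACTB and -0.0034 to 0.087 for ACTG1. The cause was not tested. The SD of ACTB over arrays was 0.16 to 1.17 over these fits, 0.16 being without replicate 3.

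Probes called for sire age numbered 0, but 6 without replicate 3 and 1858 without replicate 4, with 0 under the other alternatives. The count at an unadjusted p under 0.05 was 1439, and 457, 645, 2321 and 6565 without replicates 1, 2, 3 and 4, 806 with set-aside spots kept, 704 for probes above background in all 8 channels, 799 without a dye term, 2548 with separate channels and 7 centred on ACTB. Centring on ACTG1, the dye effects and the KRT19 level on replicate 3 were added after seeing the data. The ages are paired by array in every fit on ratios. No further block by replicate number could be fitted, because the dye orientations share no numbers. Intervals of 0.27 (ACTG1) to 0.74 (KRT19) log2 units either side limit what could be detected, and the KRT8 spot at the ceiling on replicate 3 gives only a bound.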

Other observations

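SOX2, a factor of the inner cell mass, had log2 ratios of 10 over 16 months of 0.67, 1.28, -0.32 and -1.02 on arrays 1 to 4, changing sign with the dye as KRT8 and ACTG1 did, and its estimate with the dye fitted was 0.15 ± 0.16 (SE, n = 4, limma adjusted p = 0.963). NANOG had a positive ratio on all 4 arrays, at 0.20, 0.45, 0.53 and 0.0087, with an estimate of 0.30 ± 0.14 (limma adjusted p = 0.957). Among all tested probes, 9.37% had a ratio of the same sign on all 4 arrays. Before the dye was fitted, IFNT was higher in embryos of 10-month sires on arrays 1, 2 and 4, at 0.60, 0.73 and 0.76. On array 3 it was lower, at -1.94, and ACTB and KRT19 also had their lowest ratios there. The IFNT estimate with the dye fitted was 0.04 ± 0.36 (limma adjusted p = 0.995). EEF1A1, a translation elongation factor listed among the reference genes, had a negative ratio on all 4 arrays, at -0.07, -0.45, -0.37 and -0.68, with an estimate of -0.39 ± 0.13 (limma adjusted p = 0.957) and a mean of -0.34 over its 2 tested probes.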
